A study of Mus musculus with 24 samples.

Results

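The 10 genes described here, Chst4, Chst2, Gcnt1, B3gnt3, Fut7, Fut4, St3gal4, St3gal6, B4galt1 and Slc35c1, encode the glycosyltransferases, sulfotransferases and sugar transporter that build the carbohydrate ligands of selectins. They were chosen by name, with earlier results of these data known. All 10 were found among the 36528 gene models through their mouse Entrez identifiers. They were followed in 24 RNA-seq libraries of stromal cells sorted from mouse Peyer's patches, the lymphoid tissue of the gut wall. From each mouse 1000 cells were taken by flow sorting, per the labels, as fibroblastic reticular cells (FRC, the fibroblasts of the lymphoid stroma) or as endothelial cells of high endothelial venules (HEV). PEG animals drank polyethylene glycol at 10% (w/v) freely for 3 days, to lower fluid flow, and control animals were unperturbed. There were 7 FRC control, 7 FRC PEG, 4 HEV control and 6 HEV PEG libraries. The labels give no strain, age or sex, and do not say whether FRC and HEV libraries came from the same mice. Libraries are named below by group and library number.

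High endothelial venules are the vessels through which naive lymphocytes leave the blood and enter lymph nodes and Peyer's patches. Selectins on lymphocytes bind a sulfated and fucosylated sugar, sulfo sialyl Lewis x, on mucin-like proteins of the venule wall such as Glycam1, Cd34 and Madcam1. The sugar is made in steps: Gcnt1 and B3gnt3 start the branches of an O-linked glycan, B4galt1 adds galactose, Chst4 and Chst2 add sulfate, St3gal4 and St3gal6 add sialic acid, and Fut7 and Fut4 add fucose that Slc35c1 has carried into the Golgi. In Peyer's patches Madcam1 also binds an integrin directly, and the sulfated sugar is known to be sparser there than in peripheral lymph nodes.

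The depth was 12416032 to 21710946 reads assigned to genes in 23 libraries and 3115003 in HEV PEG 16. The sorted types carried their own markers. The 10 endothelial markers summed to 6989 to 10123 CPM (reads scaled to the library's total) in the HEV libraries and to 65.0 to 298.9 CPM in the FRC libraries, and the 10 fibroblast markers to 5.54 to 487.7 CPM and 22734 to 36141 CPM. RNA of intestinal epithelium was present in varying amount: its 15 markers summed to 57.8 to 6079 CPM in FRC and 19.7 to 4482 CPM in HEV libraries. In both cell types all 14 epithelial markers tested had positive PEG estimates, with median log2 fold changes of 1.65 in FRC and 1.56 in HEV, and none passed the test. The 14 leukocyte markers summed to between 13.8 and 328.3 CPM. In such bulk RNA, fewer expressing cells and less RNA per cell cannot be told apart. The same 8 index pairs come back after library 8 and after library 16, so 3 pools of 8 libraries were assumed and entered every fit, although no label states a pool.

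Gcnt1, B3gnt3, Fut7 and St3gal6 had libraries that did not overlap between the cell types in either treatment below. Chst4 is known as a sulfotransferase of high endothelium. The stretches around the transcription start of these 5 members are shown. Each runs from 250 bases before to 50 bases after a start that RefSeq annotates in the mouse build GRCm38.p6, read 5′ to 3′ on the strand of the gene. The windows are chr19:17372795-17373094 for Gcnt1, chr8:71701751-71702050 for B3gnt3, chr2:25422992-25423291 for Fut7, chr16:58523377-58523676 for St3gal6 and chr8:110039285-110039584 for Chst4. Fut7 is on the plus strand and the others are on the minus strand. Capitals mark matches, on either strand, to CGGAAG (an ETS factor core), AGGTCA (a half-site of nuclear receptors such as COUP-TFII), TATAAA or the kappaB consensus. Where a gene has several annotated starts the first listed is shown, except for St3gal6, where the start with a match was picked.
Gcnt1: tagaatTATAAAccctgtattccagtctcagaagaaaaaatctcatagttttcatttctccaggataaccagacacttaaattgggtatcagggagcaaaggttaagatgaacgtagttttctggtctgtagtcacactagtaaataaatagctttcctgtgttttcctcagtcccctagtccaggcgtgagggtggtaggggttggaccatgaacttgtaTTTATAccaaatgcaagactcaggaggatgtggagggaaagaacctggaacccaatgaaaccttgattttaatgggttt
B3gnt3: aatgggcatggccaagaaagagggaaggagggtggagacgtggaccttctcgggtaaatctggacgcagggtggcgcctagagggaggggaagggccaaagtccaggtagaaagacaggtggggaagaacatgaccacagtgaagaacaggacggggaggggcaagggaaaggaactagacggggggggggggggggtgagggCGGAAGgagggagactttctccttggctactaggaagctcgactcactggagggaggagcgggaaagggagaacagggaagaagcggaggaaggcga
Fut7: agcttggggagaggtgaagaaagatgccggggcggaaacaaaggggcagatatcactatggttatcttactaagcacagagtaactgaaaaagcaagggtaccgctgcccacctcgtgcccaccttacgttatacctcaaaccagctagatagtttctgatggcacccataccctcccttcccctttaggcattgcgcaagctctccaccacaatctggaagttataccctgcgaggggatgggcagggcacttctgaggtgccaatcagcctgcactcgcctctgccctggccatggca
St3gal6: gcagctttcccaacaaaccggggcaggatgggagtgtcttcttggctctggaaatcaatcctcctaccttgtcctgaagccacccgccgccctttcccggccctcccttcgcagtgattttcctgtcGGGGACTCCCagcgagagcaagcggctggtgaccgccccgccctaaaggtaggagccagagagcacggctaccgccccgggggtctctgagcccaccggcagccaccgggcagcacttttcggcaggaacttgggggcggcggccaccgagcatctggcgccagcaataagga
Chst4: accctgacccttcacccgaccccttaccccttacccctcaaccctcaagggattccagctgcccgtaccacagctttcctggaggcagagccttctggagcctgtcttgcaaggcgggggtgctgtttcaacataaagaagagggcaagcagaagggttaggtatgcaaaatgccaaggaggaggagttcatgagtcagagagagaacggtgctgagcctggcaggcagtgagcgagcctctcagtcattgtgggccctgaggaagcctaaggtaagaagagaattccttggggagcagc
In these windows B3gnt3 held a match to CGGAAG 47 to 42 bases before its start, and St3gal6 held a kappaB match, on both strands, 123 to 114 bases before its start. Gcnt1 held TATAAA near the far end and its reverse complement 29 to 24 bases before the start, and the Fut7 and Chst4 windows held none of the searched letters. Over the 15 annotated starts of the 10 members, 3 windows held CGGAAG, 2 the kappaB consensus, 1 AGGTCA and 1 TATAAA. Among all 32851 RefSeq windows of 300 bases, the shares were 16.9%, 8.46%, 16.3% and 13.6%. A match of letters is a description and no evidence of binding, and the share among members was not tested.

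Fut7, the fucosyltransferase that completes the sialyl Lewis x cap and is a hallmark of high endothelium, stood at 62.5, 120.6, 217.4 and 271.0 CPM in HEV control 8, 9, 17 and 24. In the 7 FRC controls it had a median of 0 reads, and 118 of the group's 126 reads lay in FRC control 20, at 7.90 CPM (exact binomial 95% interval 6.54 to 9.46). Every HEV control library was thus above every FRC control library. The log2 fold change of HEV over FRC among controls was 8.16 ± 1.20 (SE), with an adjusted p of 0.00058 by edgeR's quasi-likelihood test and Benjamini-Hochberg adjustment over 15743 genes, of which 24.6% were called and 10.4% were called higher in HEV. Among PEG-treated animals Fut7 had 61.8, 113.6 and 146.4 CPM (lowest, median, highest) in HEV and 0, 0.059 and 0.885 CPM in FRC. The fold change was 9.08 ± 0.84, with an adjusted p of 2.3e-06 by the same test over 14991 genes, of which 26.8% were called and 12.5% were called higher. FRC control 20 also had the highest venule and endothelial marker sums of the FRC libraries, 501.1 and 298.9 CPM, with Glycam1 at 177.4 CPM and Selp at 45.2 CPM. The venule markers were Madcam1, Glycam1, Chst4, Enpp2 and Fut7, so the venule sum includes the 7.90 CPM of Fut7 itself. Without FRC control 20 the fold change among controls was 10.69, and the part of venule RNA in its Fut7 value was not tested.

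Of the 9 members tested in each comparison, 5 were called higher in HEV than in FRC among controls (10.4% of all genes tested). Among PEG-treated animals 6 were called higher (12.5% of all genes). None was called lower, where 14.2% of all genes were among controls and 14.4% under PEG. The members' median log2 fold change was 2.13 among controls, beside -0.16 over all genes tested, and 2.47 among PEG-treated animals, beside -0.08. Fut7 and B3gnt3 had too few reads in FRC alone to be tested there. They entered these comparisons through HEV, where they are high, so their direction adds no support to these counts and medians. In either treatment every HEV library was above every FRC library for Gcnt1, B3gnt3, Fut7 and St3gal6, as it was for 5.91% of the 14580 genes tested in both (8.07% among controls and 7.78% under PEG). No member lay lower in every HEV library, where 11.3% of genes did among controls and 9.4% under PEG. All 7 FRC PEG libraries carry the same i5 sequencing index and all 6 HEV PEG libraries another, and the labels' clip percentage was 1.50 to 2.08 in the former and 3.51 to 5.01 in the latter, so under PEG cell type and index cannot be told apart. Each control group holds both indexes. Chst2, Fut4, B4galt1 and Slc35c1 were not called among controls, and Chst4 was too sparse in FRC for the count model.

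**Figure D1:**
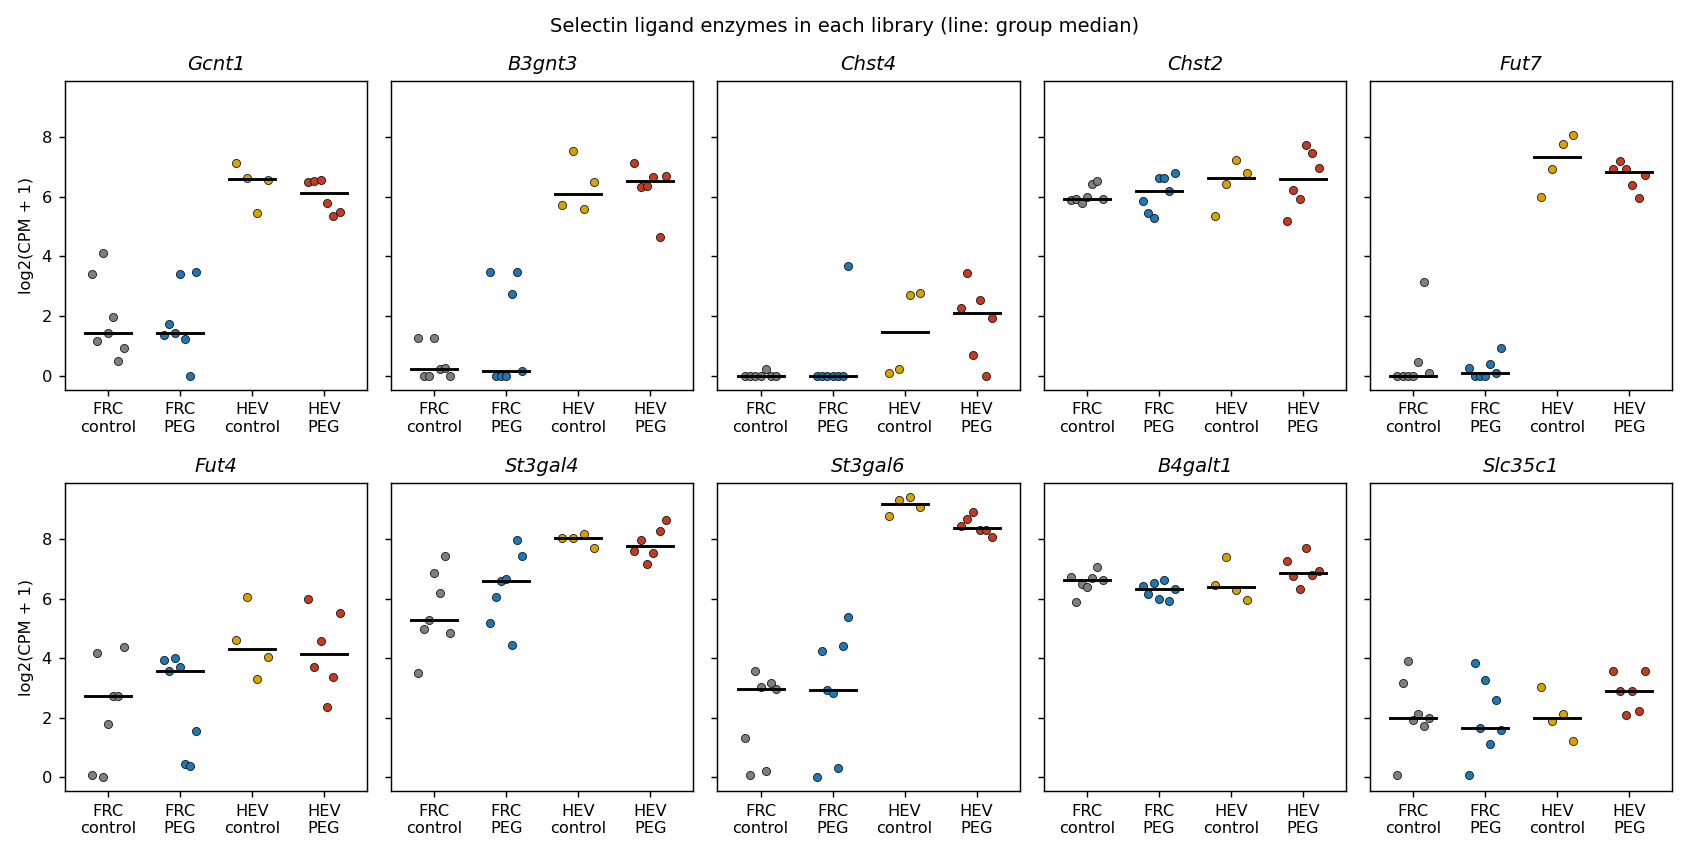
Each panel plots 1 gene, with log2(CPM + 1) on the y axis, 1 point per library and a line at the median of the plotted values for the 7 FRC control, 7 FRC PEG, 4 HEV control and 6 HEV PEG libraries. Gcnt1, B3gnt3, Fut7 and St3gal6 lie higher in all HEV libraries than in any FRC library of the same treatment, while the 4 groups overlap for Chst2, and Chst4 is at or near 0 in 13 of 14 FRC libraries.

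Gcnt1, which starts the branch on which much of the selectin ligand sits, had 43.5, 93.2, 99.4 and 138.5 CPM in the 4 HEV controls. In FRC controls it ranged from 0.402 over a median of 1.68 to 16.4 CPM, so the lowest HEV library was above the highest FRC library. The log2 fold change was 5.60 ± 0.74, with an adjusted p of 0.00017 in the quasi-likelihood test. In PEG-treated animals Gcnt1 had 40.4, 71.7 and 93.0 CPM in HEV and 0, 1.70 and 10.2 CPM in FRC (lowest, median, highest). The fold change was 4.14 ± 0.83, with an adjusted p of 0.0018 by edgeR.

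B3gnt3 extends the unbranched O-glycan and gives the second arm of the selectin ligand. HEV control 8, 9, 17 and 24 had 51.6, 183.0, 46.9 and 88.9 CPM, against 0, 0.166 and 1.41 CPM (lowest, median, highest) in FRC controls. The log2 fold change was 8.03 ± 1.12, with an adjusted p of 0.00026 in edgeR. Among PEG-treated animals it stood at 24.0, 91.7 and 139.8 CPM in HEV. The 7 FRC PEG libraries fell into 4 with 0 to 2 reads and 3 with 91, 174 and 219 reads (5.68, 10.3 and 10.1 CPM), all 3 above the highest FRC control. The fold change of HEV over FRC under PEG was 4.65 ± 1.40, with an adjusted p of 0.026 in edgeR. That call was lost without HEV PEG 7 (adjusted p = 0.13) or HEV PEG 23 (0.052) and without the 6 PEG libraries above 1000 CPM of epithelial markers (0.12), and adjusted p ranged from 5.8e-23 to 0.33 over 22 alternatives.

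B4galt1, a widely expressed galactosyltransferase that supplies the galactose of the N-acetyllactosamine unit, was abundant in every library. It ranged from 58.4 to 131.2 CPM in FRC controls and stood at 86.5, 166.6, 77.6 and 60.8 CPM in the 4 HEV controls. The fold change among controls was 0.03 ± 0.29, with a 95% interval from -0.61 to 0.67 and an adjusted p of 0.96 in edgeR. Under PEG, HEV libraries had 79.9, 115.0 and 208.3 CPM and FRC libraries 59.3, 78.1 and 98.5 CPM, and 5 of 6 HEV libraries were above every FRC library. That difference of 0.81 ± 0.23 was called, with an adjusted p of 0.018 in edgeR. It was not called without HEV PEG 7 (adjusted p = 0.079) or FRC PEG 10 (0.056), in a range from 0.0075 to 0.30 over 22 alternatives. The test of the difference between the treatments, 0.63 ± 0.36, did not pass (adjusted p = 0.58 in edgeR).

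St3gal6, one of the 2 sialyltransferases, had 440.2, 628.7, 682.7 and 532.4 CPM in HEV control 8, 9, 17 and 24, against 0.069, 6.83 and 10.9 CPM in FRC controls. The fold change was 6.84 ± 1.03, with an adjusted p of 0.00081 in edgeR. Under PEG it had 268.9, 332.2 and 475.1 CPM in HEV and 0, 6.61 and 40.8 CPM in FRC, with a fold change of 5.30 ± 1.12 and an adjusted p of 0.0034 in edgeR. FRC PEG 19 held the 40.8 CPM, and FRC PEG 1 held no read among 21710946.

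St3gal4, the other enzyme of this step, was present in all 24 libraries. Among controls HEV had 261.6, 261.4, 283.4 and 206.8 CPM, above all FRC libraries at 10.4, 37.9 and 172.2 CPM (lowest, median, highest). The fold change was 2.13 ± 0.51, with an adjusted p of 0.0097 in edgeR, and the call was lost without HEV control 8 (1.49, adjusted p = 0.097). Under PEG the groups overlapped, with 141.1, 220.4 and 400.1 CPM in HEV and 20.9, 94.3 and 252.0 CPM in FRC, and the fold change was 1.36 ± 0.35 (adjusted p = 0.010 in edgeR). It was not called without HEV PEG 7 (adjusted p = 0.057). Over all alternatives adjusted p ranged from 7.2e-11 to 0.25 among controls and from 2.9e-05 to 0.20 under PEG. The 3 highest FRC values, 252.0, 172.2 and 169.9 CPM in FRC PEG 18, FRC control 20 and FRC PEG 19, lay in the 3 FRC libraries with the highest epithelial marker sums, 6079, 2736 and 3559 CPM. HEV control 8 and HEV PEG 23, with the lowest and highest epithelial sums in HEV (19.7 and 4482 CPM), had 261.6 and 400.1 CPM of St3gal4. The part of epithelial RNA in the St3gal4 values was not tested. Without the libraries above 1000 CPM of epithelial markers, an alternative chosen after the data were seen, the fold change was 2.82 among controls (adjusted p = 0.0012 in edgeR) and 1.48 under PEG (0.13, with 2 HEV libraries left). The St3gal4, St3gal6 and B4galt1 gene models overlap other genes in part, and the counts carry no strand.

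**Figure D2:**
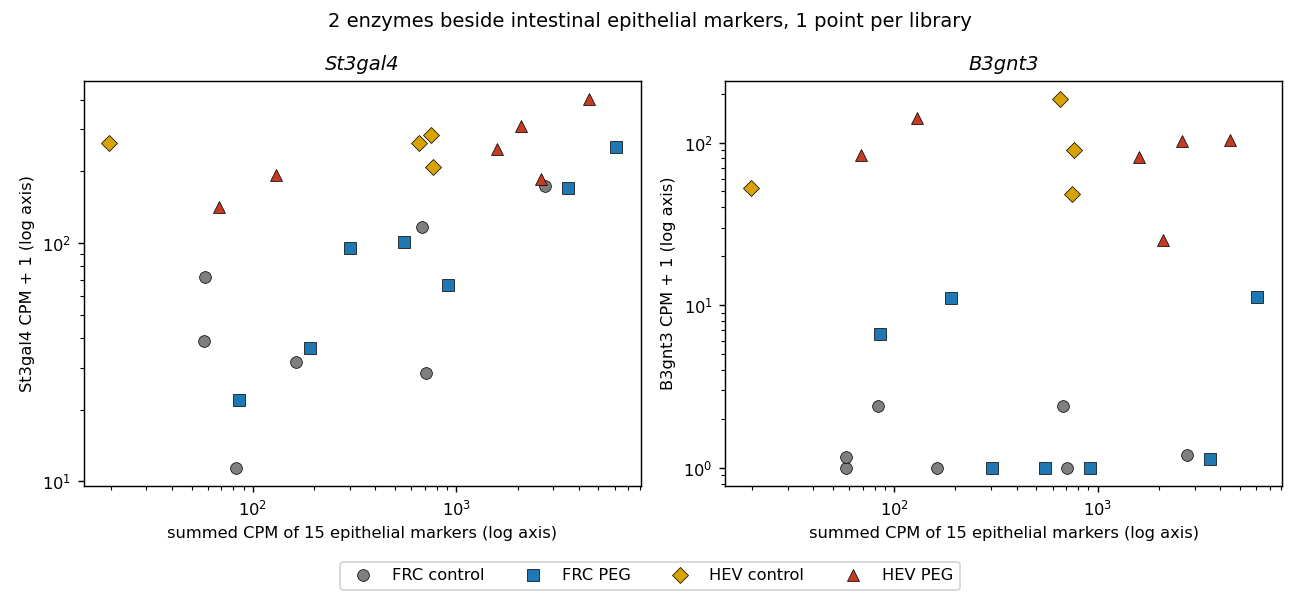
Each point is 1 library, with the summed CPM of 15 intestinal epithelial markers on the x axis and St3gal4 (left) or B3gnt3 (right) CPM + 1 on the y axis, all on log axes, and a symbol for each of the 4 groups. The 3 FRC libraries with the highest epithelial sums have the 3 highest FRC values of St3gal4, while the 3 FRC libraries with the most B3gnt3 have epithelial sums of 85.2, 191.1 and 6079 CPM.

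Of the 2 sulfotransferases, Chst4 is known from high endothelium and had between 0 and 175 reads in each HEV library. HEV control 8, 9, 17 and 24 had 1, 3, 81 and 85 reads (0.063, 0.175, 5.52 and 5.91 CPM), and the 6 HEV PEG libraries had 0, 12, 15, 41, 48 and 175 reads. In HEV PEG 22 the count of 0 has an exact binomial 95% interval up to 0.291 CPM, and the floor of 3 reads is 0.237 CPM there. FRC controls had 3 reads in all, in FRC control 13. The mean of log2(CPM + 1) was 1.45 in HEV controls and 0.03 in FRC controls (exact permutation p = 0.012, two-sided, 4 against 7 libraries, 1 of 5 such tests made). The ratio of pooled reads was 101.5, with a 95% counting interval from 34.1 to 497.0. That interval covers counting error alone and leaves out the spread between libraries. Nearly all HEV reads in it came from HEV control 17 and 24. The permutation took no account of pool. Within the assumed pools 1, 2 and 3 the difference in mean log2(CPM + 1) was 0.09, 0.12 and 2.75, so nearly all of it lay in pool 3, with HEV control 17 and 24. DESeq2 also called the contrast among controls (5.32, adjusted p = 0.026). It was not called by edgeR with no filter (adjusted p = 0.14) and by edgeR with all 24 libraries in 1 model (0.30), in a range of p from 0.0095 to 0.30 over 16 alternatives. In FRC PEG libraries all 187 reads lay in FRC PEG 19, whose 11.8 CPM (exact binomial 95% interval 10.2 to 13.6) was the highest Chst4 value of the series, above every HEV library. That library had 20.3 CPM of Glycam1, 0.126 CPM of Selp and 3559 CPM of epithelial markers. Its venule markers summed to 256.1 CPM, in a group that ran from 162.3 to 383.5 CPM. That sum includes the 11.8 CPM of Chst4 itself. The part of venule or epithelial RNA in the Chst4 value was not tested. Under PEG the difference in mean log2(CPM + 1) of 1.29 did not pass (exact permutation p = 0.12, two-sided, 6 against 7 libraries). The pooled Chst4 level was 2.36-fold higher in HEV (95% counting interval 1.96 to 2.85). In it 1 HEV library held 175 of 291 reads and 1 FRC library all 187. The interval leaves out the spread between libraries and is no test between the cell types. The contrast was called by edgeR with no filter (6.34, adjusted p = 0.017) and by DESeq2 (8.82, 0.00054), in a range of p from 0.00054 to 0.34 over 18 alternatives. Without FRC PEG 19 the difference was 1.81 (exact permutation p = 0.015), and the pooled level was at least 128.2-fold higher in HEV, against a floor of 3 reads over the 6 FRC libraries.

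Chst2, the more broadly expressed sulfotransferase of the same step, ranged from 35.2 to 215.4 CPM over the 24 libraries. It had 54.4, 60.1 and 92.2 CPM (lowest, median, highest) in FRC controls and 39.6, 86.2, 150.8 and 109.8 CPM in HEV control 8, 9, 17 and 24. The fold change of HEV over FRC was 0.31 ± 0.29 among controls (interval -0.33 to 0.94, adjusted p = 0.52 in edgeR) and 0.28 ± 0.32 under PEG (interval -0.41 to 0.98, adjusted p = 0.59). Its values were set apart by library number: the 6 FRC libraries numbered 1 to 9 had 38.5 to 59.6 CPM and the 8 numbered 10 to 24 had 60.1 to 110.5 CPM. In HEV the same 2 sets of 3 and 7 libraries had 35.2 to 86.2 CPM and 59.7 to 215.4 CPM, and within the sets the fold change of HEV over FRC was -0.48 and 0.91 among controls, neither called.

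Fut4, a fucosyltransferase that can partly stand in for Fut7, was variable in both cell types. It ranged from 0 to 19.9 CPM with a median of 5.69 in FRC controls and stood at 23.5, 65.4, 8.80 and 15.3 CPM in the 4 HEV controls. The fold change was 1.90 ± 1.36 (interval -1.07 to 4.88, adjusted p = 0.37 in edgeR). Under PEG it had 4.17, 17.5 and 61.8 CPM in HEV and 0.295, 10.8 and 15.0 CPM in FRC, and the fold change of 2.47 ± 0.90 missed the threshold (adjusted p = 0.058 in edgeR). It was called without FRC PEG 10 (4.17, adjusted p = 0.0037) or HEV PEG 16 (0.036) and by DESeq2 (0.011), in a range from 0.0024 to 0.19 over 22 alternatives.

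Slc35c1, the Golgi transporter of GDP-fucose that feeds every fucosyltransferase there, was low in all groups. It had 0.059, 2.95 and 13.9 CPM in FRC controls and 7.21, 2.68, 3.34 and 1.32 CPM in the 4 HEV controls, and the groups overlapped throughout. The fold changes of HEV over FRC were -0.06 ± 1.07 among controls (adjusted p = 0.98 in edgeR) and 0.72 ± 0.94 under PEG (adjusted p = 0.65), with intervals from -2.41 to 2.28 and from -1.30 to 2.73.

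**Figure D3:**
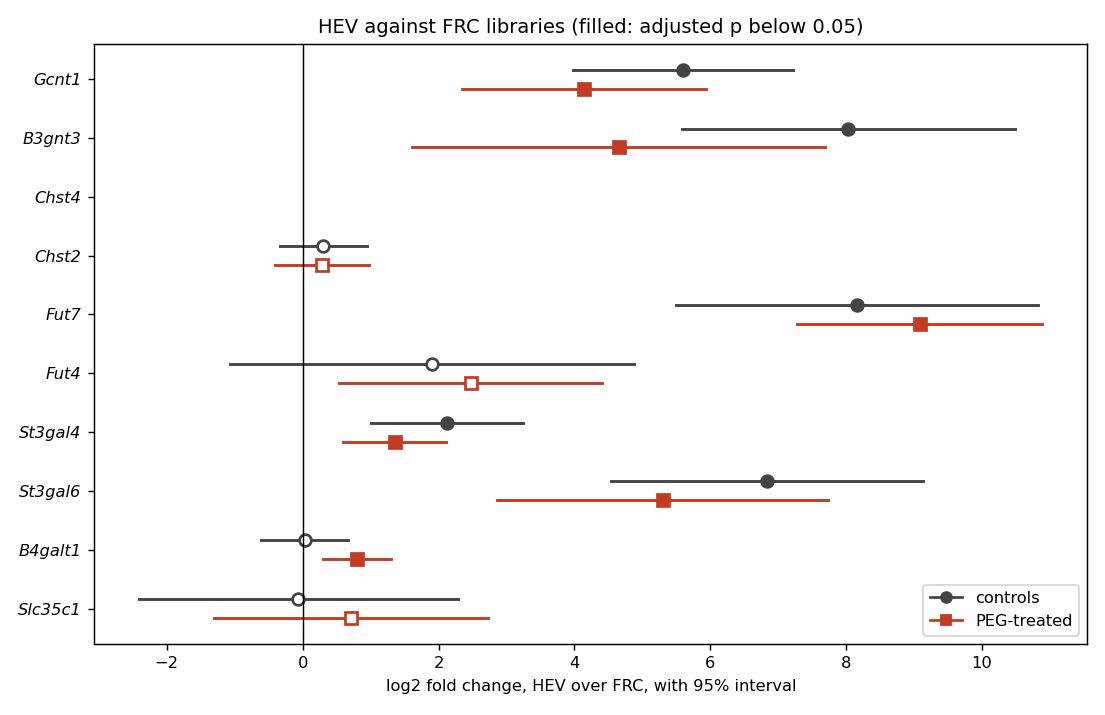
Points give the log2 fold change of HEV over FRC for each member on the x axis, with 95% intervals, among controls (circles) and PEG-treated animals (squares), filled where the adjusted p is below 0.05. Fut7, B3gnt3, St3gal6 and Gcnt1 have fold changes from 4.14 to 9.08, Chst2 and Slc35c1 have intervals that span 0 in both treatments, and Chst4 has no point because it was below the count filter.

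Levels can be compared between genes only per gene length, for which the deposited RPKM were used. In HEV controls the median RPKM fell in the order St3gal6 132.8, St3gal4 47.4, Fut7 40.2, B3gnt3 24.1, Gcnt1 15.3, B4galt1 13.5, Chst2 12.0, Fut4 4.12, Chst4 1.10 and Slc35c1 0.727. In RPKM every St3gal6 value was above every St3gal4 value, and the libraries of every other neighbouring pair overlapped. In HEV PEG libraries St3gal6 (78.0) and St3gal4 (38.5) again led, followed by B3gnt3 (31.4) and Fut7 (26.1), and all neighbours overlapped. In FRC controls the order began with B4galt1 (15.7), Chst2 (7.59) and St3gal4 (6.89), and the other members had medians of 1.55 or less. In FRC PEG libraries the same 3 genes led, with St3gal4 at 17.3, B4galt1 at 12.1 and Chst2 at 8.92. The order of the sialyltransferases depended on the length used. The deposited RPKM imply lengths of about 4352 bases for St3gal6 and 5567 for St3gal4, where the GENCODE exons cover 6172 and 2923. With CPM per kilobase of GENCODE exon, an alternative chosen after the data were seen, St3gal6 had a median of 94.1 and St3gal4 of 89.5 in HEV controls, with overlapping libraries, and under PEG St3gal4 led with 75.4 against 53.8. Fut7 followed them on that scale in both HEV groups, at 71.8 in controls and 48.2 under PEG, and all neighbours in HEV overlapped.

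**Figure D4:**
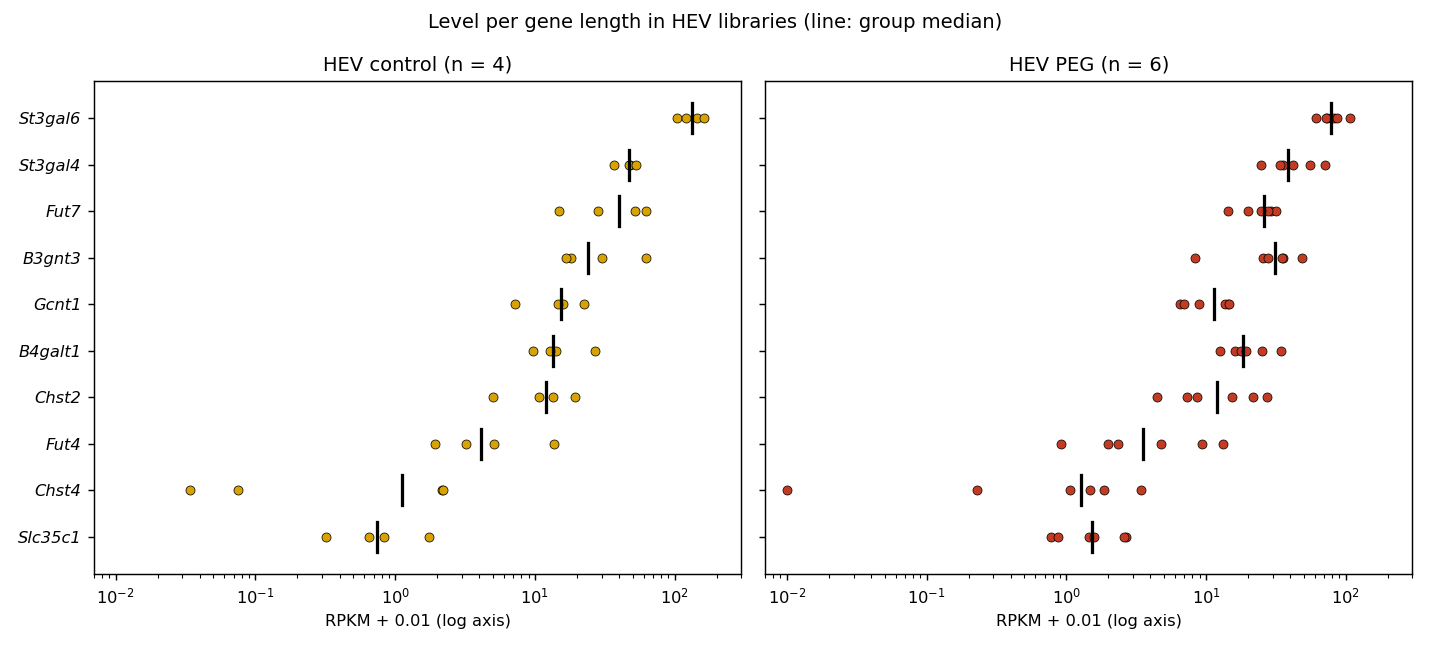
Each point is 1 HEV library (4 control, left; 6 PEG, right) and each row a member, with RPKM + 0.01 on a log x axis and a line at the group median. On this scale St3gal6 has the highest medians, 132.8 and 78.0, an order that turns in favour of St3gal4 under PEG with GENCODE exon lengths, and Chst4 spreads from near 0 to 3.43.

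A member was called near the detection floor in a group where more than 50% of its libraries had 3 reads or fewer or its median was under 1 CPM. By that rule Chst4, B3gnt3 and Fut7 were near the floor in both FRC groups, and no member was near it in HEV controls or HEV PEG libraries. Chst4 in HEV controls missed the rule only by a tie: 2 of its 4 libraries had 3 reads or fewer, exactly 50%. Its median there, 2.85 CPM, is the midpoint between 0.175 and 5.52 CPM. In HEV PEG 1 of 6 libraries was at the floor for Chst4. Of the 240 member and library pairs, 42 had 3 reads or fewer, and 29 of these had 0. The detection of other members varied between FRC libraries: Fut4, St3gal6, Gcnt1 and Slc35c1 each had FRC libraries with 0 or 1 read beside FRC libraries with over 100 reads.

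No member was called for PEG in either cell type, with pool alone or with pool plus i5 index in the edgeR fit. PEG and index coincide in part, as given above. In FRC 7 members were tested and 0 called, beside 0% of 14595 genes called by edgeR, with 989 genes at an unadjusted p under 0.05, 186 called by DESeq2 and 177 called by edgeR without a filter. The members' log2 fold changes of PEG over control in FRC ran from -0.25 ± 0.19 for B4galt1 to 0.96 ± 1.18 for St3gal6. St3gal4 stood at 0.73 ± 0.48 (unadjusted p = 0.15 in edgeR). Epithelial marker estimates for PEG are given above, and the part of epithelial RNA in the St3gal4 estimate was not tested. All 7 B4galt1 values of FRC PEG libraries were below the FRC control median of 98.7 CPM, the highest only just at 98.5 CPM, and the 2 groups overlapped. For B3gnt3, Chst4 and Fut7, which fell below the filter, the differences in mean log2(CPM + 1) of PEG minus control were 0.98, 0.49 and -0.30 (exact permutation p = 0.19, 1.0 and 0.79, two-sided, 7 against 7 libraries). Within the assumed pools the B3gnt3 difference ran from 0.63 to 1.70. In each pool 1 library, FRC PEG 1, 11 or 18, held nearly all reads of its PEG group, so the split adds no support.

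In HEV all 10 members were tested and 0 called, beside 0% of 14308 genes called by edgeR, with 886 genes at an unadjusted p under 0.05, 366 called by DESeq2 and 141 called by edgeR without a filter. St3gal6 had the smallest p: the 6 PEG libraries had 268.9, 332.2 and 475.1 CPM (lowest, median, highest) against 440.2 to 682.7 CPM in the 4 controls, and 5 of 6 PEG libraries were below every control. The log2 fold change was -0.81 ± 0.21, with an interval from -1.27 to -0.34, an unadjusted p of 0.0029 and an adjusted p of 0.77 in edgeR. DESeq2 called it (-0.78, adjusted p = 0.041), in a range of adjusted p from 0.041 to 1.0 over 19 alternatives. Within the assumed pools the difference ran from -1.05 to -0.33 on the log2(CPM + 1) scale. Pool 1 had 1 PEG and 1 control library, pool 2 had 3 and 1, and pool 3 had 2 and 2. These are the libraries of the fit above, so the split adds no support. Without the 4 HEV PEG libraries above 1000 CPM of epithelial markers the fold change was -0.36, and the part of those libraries in the difference was not tested further.

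Gcnt1 in HEV followed with -0.60 ± 0.29 (unadjusted p = 0.066 in edgeR), and all 6 PEG libraries were below the control median of 96.3 CPM. HEV control 17, at 43.5 CPM, lay within the PEG range of 40.4 to 93.0 CPM. Fut7 stood at -0.54 ± 0.42, with all 6 PEG libraries below the control median of 169.0 CPM. HEV control 8 and 9, at 62.5 and 120.6 CPM, lay within the PEG range of 61.8 to 146.4 CPM. The other members of the 10 in HEV had estimates from -0.22 for Fut4 to 1.53 for Chst4, whose interval ran from -4.91 to 7.97. Slc35c1 stood at 1.15 ± 0.84, with all 6 PEG libraries above the control median of 3.01 CPM. HEV control 8, at 7.21 CPM, lay within the PEG range of 3.31 to 10.9 CPM. How many of all genes had such splits between PEG and control libraries was not counted. The intervals of St3gal4 (-0.63 to 0.50) and Gcnt1 (-1.24 to 0.05) were the narrowest after that of St3gal6. Whether PEG acted differently on the 2 cell types was tested over all 24 libraries, where 0.011% of 18203 genes were called and none was a member. The smallest p among the members there was that of B3gnt3 (-3.33 ± 1.79, unadjusted p = 0.077, adjusted p = 0.55 in edgeR). In data simulated from the real libraries, the edgeR fit recovered 49% of 4-fold changes for PEG in FRC and 33% in HEV, and 18% and 1% of 2-fold changes. The changed genes had at least 5 CPM, and no pool effect was simulated. These shares therefore do not describe sparser members, such as Chst4 in HEV or Gcnt1 and Slc35c1 in FRC.

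**Figure D5:**
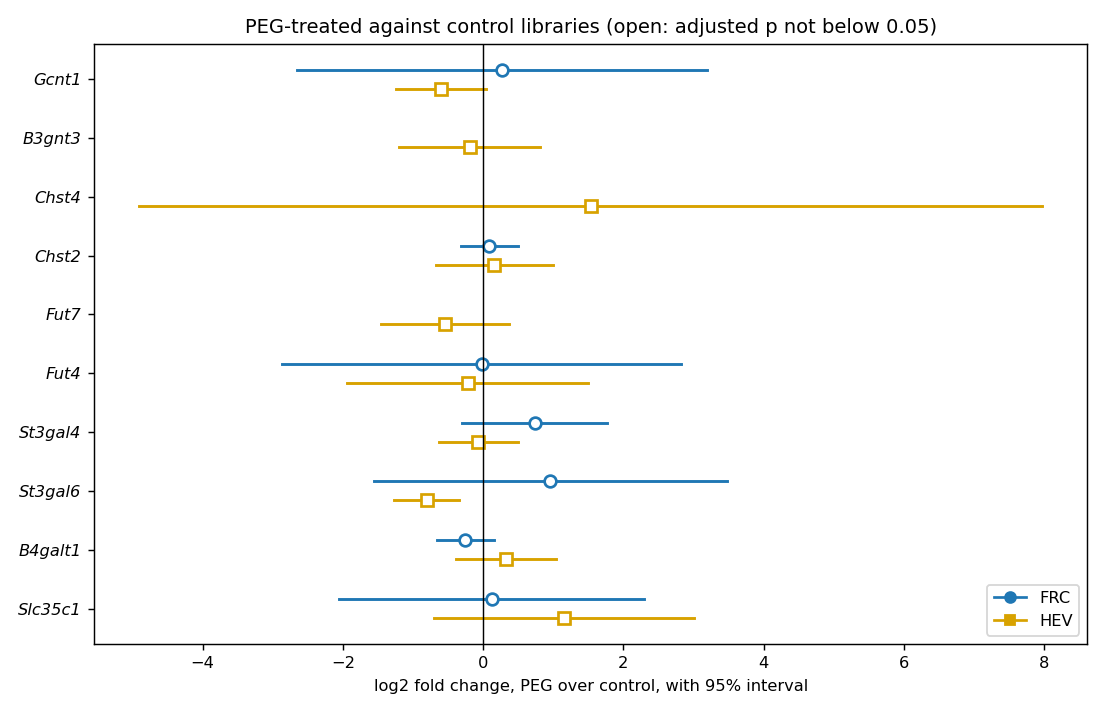
Points give the log2 fold change of PEG over control on the x axis with 95% intervals, in FRC (circles) and HEV (squares), and all points are open because no adjusted p is below 0.05. St3gal6 in HEV lies at -0.81 with an interval below 0, and B3gnt3, Chst4 and Fut7 have no FRC point because they were below the count filter there.

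Most tested genes whose proteins carry the selectin ligands had more RNA in HEV. Among 10 tested carriers, 6 were called higher in HEV than in FRC controls (10.4% of all genes) and 2 lower (14.2%). Under PEG 6 were called higher (12.5% of all genes) and 2 lower (14.4%). Glycam1 and Madcam1 are also venule markers here and Emcn an endothelial marker, so their calls restate the identity of the sorted cells. Glycam1 had 3332 to 8510 CPM in HEV controls against a median of 11.4 CPM in FRC controls, with a fold change of 7.66 ± 0.99 (adjusted p = 0.00035 in edgeR). Madcam1 had 7495 to 11371 CPM against a median of 74.8 CPM (6.92 ± 0.55, adjusted p = 1e-05). Cd34, which fibroblasts also make, had 467.5 to 966.0 CPM against a median of 309.9 CPM (1.40 ± 0.17, adjusted p = 9.9e-05). The endothelial mucins Podxl, Emcn and Cd300lg were also higher, and Parm1 (-4.59 ± 1.10) and the hyaluronan receptor Cd44 (-2.01 ± 0.34) were lower. The endothelial selectins Selp (9.71 ± 1.60) and Sele (9.41 ± 1.30) were higher in HEV controls, and both were called under PEG too, at 12.99 ± 0.60 and 14.13 ± 0.75.

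Other enzymes of glycan assembly were mixed between the cell types, and their counts stand beside 24.6% of all genes called among controls (10.4% higher, 14.2% lower) and 26.8% under PEG (12.5% higher, 14.4% lower). Among 6 other fucosyltransferases tested, Fut2, which makes the H-type fucose of mucosal secretions, was higher in HEV controls (9.11 ± 0.91, adjusted p = 2.1e-05 in edgeR), and Fut8, Pofut1 and Pofut2 were lower. Fut2 had 57.8 to 208.3 CPM in HEV controls and 0 to 1.41 CPM in FRC controls, and it was called under PEG too (6.74 ± 0.70). Among 10 other sialyltransferases, St6gal1, which makes the ligand of the B cell lectin Cd22, was higher with 2.94 ± 0.96 (adjusted p = 0.044 in edgeR), as were St6galnac2 and St6galnac3, and none was lower. Under PEG 2 of 9 were higher (St6gal1, St6galnac3) and 2 lower (St3gal3, St3gal5). Among 8 other carbohydrate sulfotransferases, the chondroitin enzyme Chst11 was higher in controls, and under PEG Chst1 (3.61 ± 1.14) and Chst15 were called with it. Of 12 enzymes of O-glycan initiation and core formation, Galnt18 was higher and Galnt16 and Galnt6 lower. Of 11 other branching and elongation enzymes, B4galt4 and B3gnt2 were higher and B4galt2 lower.

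For the sugar and sulfate donors the counts again stand beside 10.4% of all genes called higher and 14.2% called lower among controls. Of 6 genes of PAPS supply, the sulfate donor, Papss2, Slc35b3 and Slc26a2 were higher in HEV controls, from 1.68 to 2.40, and the Golgi transporter Slc35b2 was lower (-0.98 ± 0.21, adjusted p = 0.0054 in edgeR). Of 5 genes of sialic acid supply, Gne, the first enzyme of its synthesis, was higher (3.64 ± 0.49, adjusted p = 0.00021), as was Cmah. Of the genes of UDP-sugar supply, Uap1 (2.79 ± 0.22) and Slc35a3 (1.89 ± 0.63) were higher and Ugp2 was lower. None of 5 genes of GDP-fucose supply was called in controls. Of 12 genes of the lymphotoxin beta receptor and NF-kappaB pathway, which keeps venules mature, 5 were higher in HEV controls (10.4% of all genes) and none lower (14.2%): Relb (2.18 ± 0.27), Nfkb2, Birc2, Rela and Chuk. No gene of these lists was called for PEG in either cell type.

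The genes most like each member were sought by Pearson r of log2 CPM among 11861 genes, as a description over libraries that share their cell type and pool. Over the 24 libraries Fut7 went with Selp (r = 0.98), Gm16548 and Irx3, Gcnt1 with Enpp2 (0.92), Sting1 and Thrsp, B3gnt3 with Tnfrsf9 (0.94), Shroom4 and Cxcl11, and St3gal6 with Dennd2d (0.95), Ace and Pcdh1. St3gal4 went with Pglyrp1 (0.92), Ceacam1 and Oit1. Chst2 (Magt1, 0.83), Fut4 (4930550C14Rik, 0.78), B4galt1 (Ifnar1, 0.77) and Slc35c1 (Slc44a2, 0.78) had weaker nearest genes. Over the 10 HEV libraries alone the nearest genes were others, such as Cdk7 for Fut7 (0.91), Zfp87 for Gcnt1 (0.95), Dnaja4 for B3gnt3 (0.95), Hprt for St3gal6 (0.92) and Tnxb for St3gal4 (0.90).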

How the data were processed

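Poly(A) RNA of 1000 sorted cells per library was amplified by template switching and sequenced. The labels' protocols state that poor, ribosomal and adapter reads were discarded and that only unique alignments counted. GSNAP and mm9 are named in the submitters' processing notes; the protocol text names a human build instead. Versions and the annotation are not given in the sources used here. Each deposited file gives a count and an RPKM for every gene, per the file headers. The deposited RPKM equals the count over the library's size factor up to a constant of each gene, checked on 5703 genes; that constant had a Spearman correlation of 0.81 with GENCODE exon length, so levels set between genes are approximate. Counts carry no strand.

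Symbols were joined to the Entrez identifiers through RefSeq (GRCm38.p6), which named 85.0% of the gene models, holding 97.3% of the reads. All 10 members matched. CPM are counts scaled to the library's total. Each comparison was fitted on its own groups across all genes with edgeR 4.0.16 (R 4.3.3; filterByExpr at a count minimum of 10, TMM, quasi-likelihood F test, robust, two-sided, pool as covariate), and a gene was called at a Benjamini-Hochberg adjusted p under 0.05. Standard errors were derived from the fold change and its F statistic. Members below the filter were compared by exact permutation of mean log2(CPM + 1), without regard to pool (scipy 1.17.1). Scripts were tested on simulated data. The alternatives were DESeq2 size factors, no filter, a minimum of 50, DESeq2 1.42.0 (Wald test), no covariate or pool plus i5 index, all 24 libraries in 1 model, libraries 1 to 9 or 10 to 24 alone, pseudocounts of 0.1 and 10, and each library left out.

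The members and gene lists were chosen with earlier results of these data known. Beside the members, up to 4 called genes per list and direction, the carriers Glycam1, Madcam1 and Cd34, the endothelial selectins and the 3 most alike genes of each member are named; 2 genes this rule names are not reported here. The libraries most alike still differed in 18791 gene counts. The labels' protocols describe 1 mouse per sorted sample, so the tests within a cell type rest on differences between mice; FRC and HEV libraries may share mice. Counting intervals and the floor of 3 reads cover counting error only, since reads are PCR copies without molecular identifiers.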

Additional observations from a re-analysis of the deposited data

Results flagged for a closer look

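Levels that stood apart within a group were sought on the log2(CPM + 1) scale with Dixon's ratio. Of 40 combinations of a member and a group, 5 stood apart. The ratio's chance rate of about 1 in 20 assumes normally distributed values, so the 5 cannot be set against it. Where all other libraries had 0 reads, any library with a read stands apart, as in both Chst4 cases below. Chst4 stood apart at 11.8 CPM in FRC PEG 19, where the other 6 libraries had 0 reads. Chst4 also stood apart at 0.166 CPM in FRC control 13, which was 3 reads where the other 6 libraries had 0. B3gnt3 stood low at 24.0 CPM in HEV PEG 22, where the next library had 79.9 CPM. Fut7 stood apart at 7.90 CPM in FRC control 20, where the next had 0.388 CPM, and at 0.885 CPM in FRC PEG 19, where the next had 0.312 CPM.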

How the results depend on the processing

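The calls of Gcnt1, B3gnt3, Fut7, St3gal4 and St3gal6 as higher in HEV controls held with DESeq2 size factors, no filter, a minimum of 50 reads, DESeq2's Wald test, no covariate, pool plus i5 index, all 24 libraries in 1 model and without high-epithelial libraries. Libraries 1 to 9 alone kept Fut7 and St3gal4, and libraries 10 to 24 alone kept Gcnt1, B3gnt3 and St3gal6; both use fewer libraries. No paired analysis was possible because each library has a number of its own and the groups share none. No fit was made for PEG in HEV with libraries 1 to 9 alone, whose 3 libraries leave no residual degree of freedom beside pool, or for HEV against FRC under PEG with pool plus i5 index, where index and cell type coincide. Chst4 and, in FRC, B3gnt3 and Fut7 rest on few reads: Chst4 had 0 reads in FRC PEG 1, the deepest library, and 15 in HEV PEG 16, the shallowest.

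Numbers of genes called moved as follows. For PEG in FRC 177 genes were called with no filter and 186 by DESeq2. For PEG in HEV there were 141 with no filter, 366 by DESeq2 and 18 with all 24 libraries in 1 model. For HEV against FRC controls there were 6048 by DESeq2, 2276 with libraries 10 to 24 and 1185 with libraries 1 to 9, against 3869. Under PEG there were 6076 by DESeq2, 1137 with libraries 1 to 9 and 2234 without high-epithelial libraries, against 4022. For the difference of PEG effects there were 38 with no filter, 661 by DESeq2, 5 with no covariate, 0 with pool plus i5 index or libraries 10 to 24, 33 with libraries 1 to 9, 6 without high-epithelial libraries and 1 to 16 with each library left out, against 2. The causes were not tested.

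Estimates that no test called changed sign in places. For PEG in FRC, libraries 1 to 9 alone gave Chst2 -0.29, Gcnt1 -2.28, Fut4 1.24 and Slc35c1 -0.50; without high-epithelial libraries these were -0.015, -0.95, 0.98 and -0.038. With no covariate Gcnt1 was -0.33, Fut4 0.14 and Slc35c1 -0.033, with pool plus i5 index Fut4 was 1.39, and DESeq2 gave Fut7 0.20. With each library left out, Chst4 ran from -0.032 to 0.58, Chst2 from -0.0038 to 0.17, Gcnt1 from -1.54 to 0.76, Fut7 from -0.41 to 0.14, Fut4 from -1.12 to 0.85 and Slc35c1 from -0.47 to 0.49.

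For PEG in HEV, libraries 10 to 24 alone gave Chst4 -2.06, Fut4 1.12 and St3gal4 0.47. Pool plus i5 index gave B3gnt3 0.043, Fut4 0.73 and St3gal4 0.17, and all 24 libraries in 1 model gave Fut7 0.13. Without high-epithelial libraries Chst2 was -0.34, B3gnt3 0.15, Fut7 0.49 and B4galt1 -0.11. With each library left out, Chst4 ran from -0.52 to 3.64, Chst2 from -0.11 to 0.25, B3gnt3 from -0.64 to 0.37, Fut4 from -0.91 to 1.21 and St3gal4 from -0.25 to 0.16.

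For HEV against FRC controls, libraries 1 to 9 alone gave Chst2 -0.48 and Slc35c1 0.036, libraries 10 to 24 alone gave B4galt1 -0.60, and pool plus i5 index gave Slc35c1 0.13. With each library left out, B4galt1 ran from -0.32 to 0.23 and Slc35c1 from -0.29 to 0.21. Under PEG, Chst2 was -0.38 with libraries 1 to 9 alone and -0.48 without high-epithelial libraries.

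For the difference of PEG effects, libraries 10 to 24 alone gave Chst4 -6.92, Chst2 -0.42, Fut4 1.72 and St3gal4 0.19, and libraries 1 to 9 alone gave Gcnt1 1.63, Fut7 -2.32 and Fut4 0.17. Chst4 was -5.42 with no covariate, and with pool plus i5 index Chst4 was -0.52 and Slc35c1 -0.36. Without high-epithelial libraries Chst2 was -0.72 and Fut7 -0.22. With each library left out, Chst4 ran from -2.58 to 3.12, Chst2 from -0.16 to 0.34, Fut7 from -1.54 to 2.27 and Fut4 from -0.52 to 1.01. The causes were not tested.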
